A study of Mus musculus with 12 samples.

Results

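Small leucine-rich proteoglycans (SLRPs) were followed as 9 listed genes out of the 22317 gene symbols in the raw count table: Dcn (decorin), Bgn (biglycan), Aspn (asporin), Lum (lumican), Fmod (fibromodulin), Omd (osteomodulin), Prelp, Ogn (osteoglycin) and Podn (podocan). The genes were listed by name as members of the family, without use of their values, and all 9 have counts in all 12 libraries. RNA-seq libraries were made from adult wild-type male BALB/c mice after photothrombosis (PT), in which a dye in the blood is lit with a laser to close the vessels of a small area. SB2 and SB4 are labelled as brain cortex on day 2 and day 4 after ischemic injury of the skull, and BS2 and BS6 as interparietal bone, a plate of the skull, on day 2 and day 6 after ischemic injury of the brain. Each group holds 3 libraries of poly(A) mRNA from tissue with the ischemic and the surrounding region. Control and directly injured tissues were not analysed here, so that no comparison sets a member against an uninjured level, and the 3 libraries of a group are described in the study's methods as biological replicates, without a statement here on whether each came from a single animal.

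SLRPs are secreted proteins with a core of leucine-rich repeats, most of which carry glycosaminoglycan (GAG) chains or sulfated tyrosines. They bind to collagen fibrils and set fibril diameter and spacing, and several of them also hold growth factors such as TGF-beta or bind Toll-like receptors. Decorin, biglycan and asporin form class I, with chondroitin or dermatan sulfate chains on the first 2 of these. Lumican, fibromodulin, osteomodulin and PRELP form class II, in which keratan sulfate chains or sulfated tyrosines are usual. Osteoglycin belongs to class III and podocan to class V. In the skull they are made by osteoblasts, periosteal cells and the fibrous tissue of the sutures, and around the brain by fibroblasts of the meninges and of the larger vessels.

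The labels of 6 libraries went against their transcripts. The libraries labelled SB2, although labelled brain cortex, held 108 to 143 CPM (counts relative to the library size, scaled with TMM factors over the 12 libraries) in the sum of 10 neuron markers, and the libraries labelled BS6 held 115 to 201 CPM, against 12440 to 13390 CPM in SB4 and 12010 to 12480 CPM in BS2. The bone sialoprotein gene Ibsp stood at 2115 to 3986 CPM in SB2 and 491 to 1325 CPM in BS6, and at 0.0709 to 0.218 CPM in SB4 and BS2, at or near the 0.163 to 0.218 CPM that 3 counts are worth. SB2 and BS6 are therefore called the bone-rich and SB4 and BS2 the brain-rich libraries, and each group keeps its label as a name only. Whether the labels of the day 2 groups were exchanged was not tested. If they were, SB2 would be bone on day 2 after brain injury and BS2 brain on day 2 after skull injury, and BS6 against SB2 and SB4 against BS2 would each compare days within 1 tissue and injury. Every change over time below compares a bone-rich with a brain-rich group, so that the day and the tissue content cannot be told apart. BS6 replicate 2 stood apart from its group, with 24430 CPM in the sum of the neutrophil-lineage markers against 1387 and 3343 CPM in replicates 1 and 3, and the members' tests and shares in BS6 are given with and without it. Total counts ranged from 14126082 to 18972654 per library. In such bulk libraries, fewer cells of a type and less RNA per cell cannot be told apart.

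Most of the members lie in small clusters of the family (GENCODE M21 coordinates on mm10). Lum (chr10:97565128-97572703) follows Dcn (chr10:97479609-97518143) on the plus strand of chromosome 10. Aspn (chr13:49544443-49567565), Omd (chr13:49582462-49592822) and Ogn (chr13:49608046-49624501) follow each other on the plus strand of chromosome 13, all within the span of the gene Cenpp on the other strand. Cenpp had 0.272 to 5.64 CPM in the 12 libraries and shares 7 exon bases with Aspn and 0 with Omd and Ogn. Prelp (chr1:133910304-133921414, minus strand) and Fmod (chr1:134037254-134048277, plus strand) are near neighbours on chromosome 1, and 350 exon bases of Prelp lie opposite the antisense gene Gm15851, whose reads cannot be told apart from those of Prelp without strand. Bgn (chrX:73483602-73495933) and Podn (chr4:108014791-108096445, minus strand) stand alone, and the span of Podn overlaps that of Scp2 without shared exon bases.

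RefSeq promoter windows (GRCm38.p6, 250 bases before to 50 bases after a transcript start) were at hand for 7 of the 9 members. Shown are the windows of Aspn and Podn, the members with the lowest and the highest GC content, and of Ogn, a neighbour of Aspn on chromosome 13 with 2 matches to the same motif. Capitals mark matches anywhere in the window, on either strand, to the TATA box motif (TATAAA), the GC box (GGGCGG) or a Runx motif (TGTGGT). The distance of a match from the transcript start was not considered, so that a match to TATAAA need not lie where a TATA box works. No shown window holds the AP-1 motif (TGANTCA).
Aspn, chr13:49544193-49544492, plus strand: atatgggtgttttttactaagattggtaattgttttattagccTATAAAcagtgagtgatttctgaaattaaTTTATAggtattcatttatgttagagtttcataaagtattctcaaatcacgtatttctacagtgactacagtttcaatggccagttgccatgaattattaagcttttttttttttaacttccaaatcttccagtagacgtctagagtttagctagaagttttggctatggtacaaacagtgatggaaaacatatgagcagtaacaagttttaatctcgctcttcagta
Ogn, chr13:49607765-49608064, plus strand: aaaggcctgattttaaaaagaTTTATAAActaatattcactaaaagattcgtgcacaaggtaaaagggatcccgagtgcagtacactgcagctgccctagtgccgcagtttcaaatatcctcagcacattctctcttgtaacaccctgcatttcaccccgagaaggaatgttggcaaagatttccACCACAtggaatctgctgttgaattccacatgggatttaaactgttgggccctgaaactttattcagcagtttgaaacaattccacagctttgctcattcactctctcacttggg
Podn, chr4:108031905-108032204, minus strand: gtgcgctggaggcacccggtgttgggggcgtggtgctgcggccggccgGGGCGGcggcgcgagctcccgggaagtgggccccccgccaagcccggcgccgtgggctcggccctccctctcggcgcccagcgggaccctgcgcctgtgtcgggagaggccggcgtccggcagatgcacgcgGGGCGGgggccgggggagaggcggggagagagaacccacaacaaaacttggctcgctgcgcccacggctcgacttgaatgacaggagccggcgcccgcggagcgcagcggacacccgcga

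The Aspn window has a GC content of 31.0% and 3 CpG dinucleotides, and lower GC was found in 1.28% of the 32851 promoter windows of the genome. It holds 2 matches to TATAAA, a motif present in 13.6% of all windows. Ogn has 42.3% GC, 4 CpG, 2 overlapping matches to TATAAA and 1 to TGTGGT, which 16.8% of all windows hold. Podn is at the other end, with 77.0% GC, 41 CpG and 2 matches to GGGCGG, a motif of 35.7% of all windows, and 97.6% of all windows have lower GC. A second window of Podn, 1 of 2 listed starts, has 63.0% GC and 7 CpG. The median window has 52.7% GC and 7 CpG, and TGANTCA occurs in 7.81% of windows and in none of the members' windows. Bgn (63.7% GC, 3 matches to GGGCGG), Prelp (55.3%), Fmod (51.0%) and Omd (37.7%) lie between Aspn and Podn. The matches are descriptions of these letters and do not show a bound factor.

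In the libraries labelled SB2 and BS6 the family was abundant. The 9 members together took 8960, 10100 and 11130 CPM in SB2 replicates 1 to 3, and 13030, 5031 and 11910 CPM in BS6. In SB4 they summed to 27.7, 36.7 and 45.2 CPM and in BS2 to 33.7, 67.5 and 68.1 CPM. The bone-rich and the brain-rich libraries did not overlap in this sum. The 7 of 10 osteoblast and osteocyte markers in the table moved the same way as the family, with a sum of 1194 to 5294 CPM in the bone-rich and 20.2 to 25.2 CPM in the brain-rich libraries, and their part in the members' levels was not tested.

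**Figure D1:**
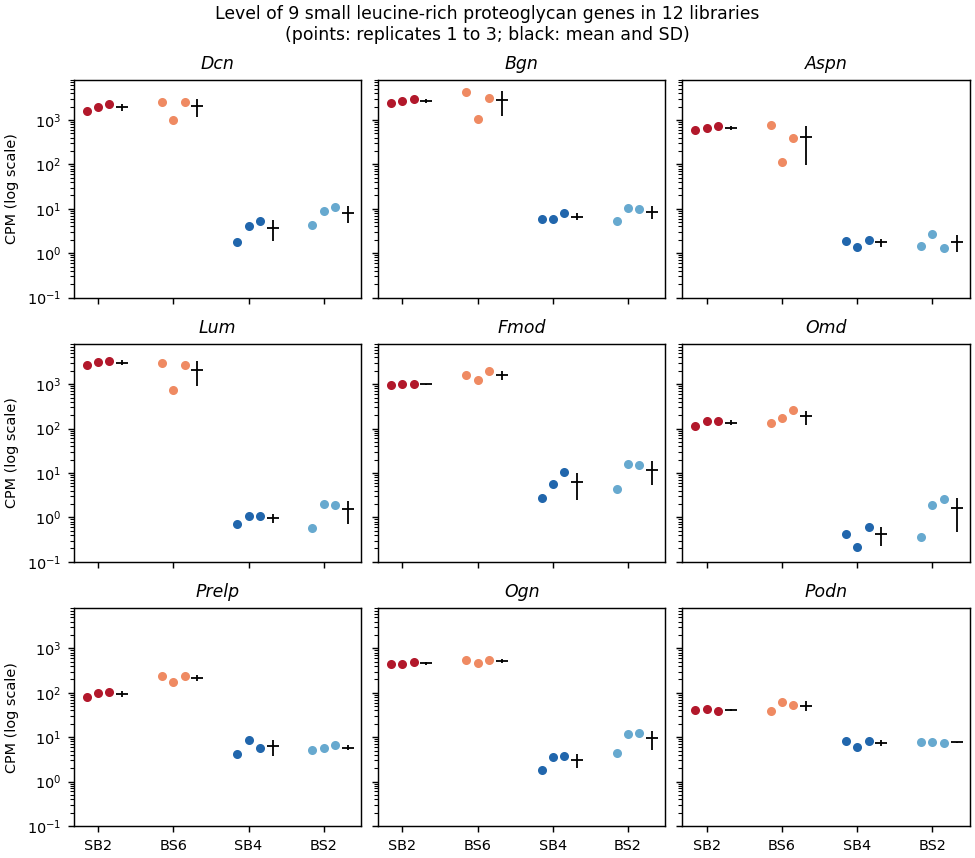
Level of each member in the 12 libraries, in CPM on a log axis; coloured points are replicates 1 to 3 of SB2, BS6, SB4 and BS2, and the black marks are the mean and SD. For all 9 members the SB2 and BS6 libraries lie above the SB4 and BS2 libraries, with the narrowest gap for Podn (38.0 to 62.9 against 6.09 to 8.24 CPM) and a low BS6 replicate 2 for Aspn, Lum, Bgn and Dcn.

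Class I began with decorin, which limits the lateral growth of fibrils. Dcn had 1594, 1911 and 2256 CPM in SB2, 2565, 1019 and 2607 CPM in BS6, 1.77, 4.02 and 5.40 CPM in SB4, and 4.37, 8.97 and 11.2 CPM in BS2. Biglycan, which is abundant in bone matrix and binds Toll-like receptors when it is released, had 2446, 2689 and 2953 CPM of Bgn in SB2, 4174, 1050 and 3176 CPM in BS6, 6.03, 5.93 and 8.13 CPM in SB4, and 5.43, 10.2 and 10.1 CPM in BS2. For both genes BS6 replicate 2 was the lowest of the bone-rich libraries. Asporin, named for a run of aspartates near its start, binds collagen and TGF-beta, and Aspn had 582, 663 and 714 CPM in SB2, 761, 112 and 395 CPM in BS6, 1.92, 1.36 and 1.95 CPM in SB4, and 1.48, 2.69 and 1.31 CPM in BS2. The spread of Aspn within BS6, 6.79-fold from lowest to highest, was the widest of any member in a bone-rich group.

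Lumican, a class II member that spaces thin fibrils, had the widest range. Lum stood at 2701, 3095 and 3398 CPM in SB2 and at 2981, 725 and 2676 CPM in BS6. In SB4 it had 0.709, 1.09 and 1.06 CPM and in BS2 0.590, 2.05 and 1.89 CPM, which rest on 10 to 32 reads per library. Fibromodulin, known from tendon and for the crosslinking of collagen, stayed closer to its group in BS6 replicate 2. Fmod had 958, 1013 and 1019 CPM in SB2, 1585, 1244 and 1952 CPM in BS6, 2.77, 5.71 and 10.2 CPM in SB4, and 4.25, 16.3 and 14.9 CPM in BS2, so that all BS6 libraries lay above all SB2 libraries. Osteomodulin, a keratan sulfate proteoglycan of mineralised tissue, was the scarcest member in SB4. Omd had 115, 145 and 149 CPM in SB2 and 133, 172 and 260 CPM in BS6, against 0.426, 0.217 and 0.613 CPM in SB4 and 0.354, 1.86 and 2.54 CPM in BS2, where replicate 1 had 6 reads and replicates 2 and 3 had 29 and 35. PRELP, which anchors basement membranes to the connective tissue beneath, has few or no GAG chains. Its gene Prelp had 80.6, 97.6 and 106 CPM in SB2, 242, 177 and 235 CPM in BS6, 4.11, 8.70 and 5.74 CPM in SB4, and 5.07, 5.76 and 6.54 CPM in BS2, again with BS6 above SB2 in every library.

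Osteoglycin, also called mimecan, is made by bone and by vessel walls. Ogn was the steadiest of the abundant members across the bone-rich libraries, with 444, 440 and 493 CPM in SB2 and 551, 470 and 560 CPM in BS6, which overlapped. In the brain-rich libraries the groups were apart, with 1.84, 3.59 and 3.84 CPM in SB4 and 4.42, 11.9 and 12.3 CPM in BS2. Podocan, a class V member, was first described in kidney podocytes. Podn had 41.7, 42.2 and 38.7 CPM in SB2, 38.0, 62.9 and 52.2 CPM in BS6, 8.16, 6.09 and 8.24 CPM in SB4, and 7.73, 7.81 and 7.34 CPM in BS2. It was the scarcest member in both bone-rich groups by mean CPM, and in SB4 its mean was the highest of the 9, while in BS2 Fmod, Ogn, Bgn and Dcn had higher means.

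To compare members with each other, CPM was divided by the exon length in kilobases (from 2249 bases for Omd to 6099 bases for Bgn). In SB2 the order of the levels per kilobase was Lum (1252 ± 143, SD, n = 3), Bgn (442 ± 41.6), Dcn (329 ± 56.8), Fmod (302 ± 10.2), Aspn (277 ± 28.3), Ogn (179 ± 11.6), Omd (60.6 ± 8.42), Prelp (26.2 ± 3.61) and Podn (9.57 ± 0.452). Of these neighbours in the order, Dcn and Fmod overlapped between libraries, as did Fmod and Aspn, and the other pairs were apart. In BS6 the order began with Lum (869 ± 500 CPM per kilobase), Fmod (482 ± 107) and Bgn (459 ± 262), and all neighbours overlapped except Prelp (60.2 ± 9.92) and Podn (11.9 ± 2.92). In SB4 the highest were Fmod (1.89 ± 1.14 CPM per kilobase), Podn (1.76 ± 0.286) and Prelp (1.71 ± 0.643), which overlapped, and the lowest Lum (0.389 ± 0.0859) and Omd (0.186 ± 0.0879), which were apart. In BS2 the order ran from Ogn (3.71 ± 1.72 CPM per kilobase) and Fmod (3.58 ± 2.00) down to Omd (0.704 ± 0.498) and Lum (0.617 ± 0.327), and every neighbour overlapped. Lum thus had rank 1 in both bone-rich groups, rank 8 in SB4 and rank 9 in BS2.

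The make-up of the family, taken as each member's share of the summed reads per kilobase of the 9 genes, does not depend on how libraries are scaled. In SB2 it was nearly the same in the 3 libraries: Lum held 42.9, 43.7 and 43.8%, Bgn 15.6, 15.2 and 15.3%, and Aspn 9.62, 9.73 and 9.57%. In BS6 Lum held 34.9, 21.3 and 33.9% and Fmod 13.7, 27.1 and 18.3%, against 11.3, 10.6 and 9.73% of Fmod in SB2. All BS6 libraries were below all SB2 libraries for Lum and above them for Fmod, also with BS6 replicate 2 left out, when Lum averaged 34.4% and Fmod 16.0%. The mean share of Lum was 13.5 percentage points lower in BS6 than in SB2, that of Aspn 3.68 points lower, and those of Fmod, Dcn and Prelp 9.16, 1.61 and 1.57 points higher, each with p = 0.1 in a two-sided exact permutation test, the smallest p that 3 against 3 libraries allow, so that no call at 0.05 was possible. With BS6 replicate 2 left out, the difference of BS6 from SB2 was -9.14 points for Lum, -2.42 for Aspn, 5.47 for Fmod, 1.82 for Dcn and 1.05 for Prelp. In the brain-rich libraries Podn held 26.6, 14.7 and 16.2% in SB4 and 20.4, 9.63 and 9.12% in BS2, although in SB2 it held only 0.286 to 0.380%. Prelp held 13.3 to 24.7% in SB4 and 8.40 to 15.8% in BS2, against 0.868 to 0.933% in SB2. Between the brain-rich groups the share of Ogn was 9.998, 14.4 and 12.6% in SB4 and 19.4, 24.3 and 25.4% in BS2, and that of Dcn 4.23, 7.08 and 7.77% in SB4 and 8.42, 8.09 and 10.2% in BS2. Both were apart between these groups, again with the smallest possible exact permutation p of 0.1, and the other 7 members had p of 0.2 to 0.7 in the same test.

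**Figure D2:**
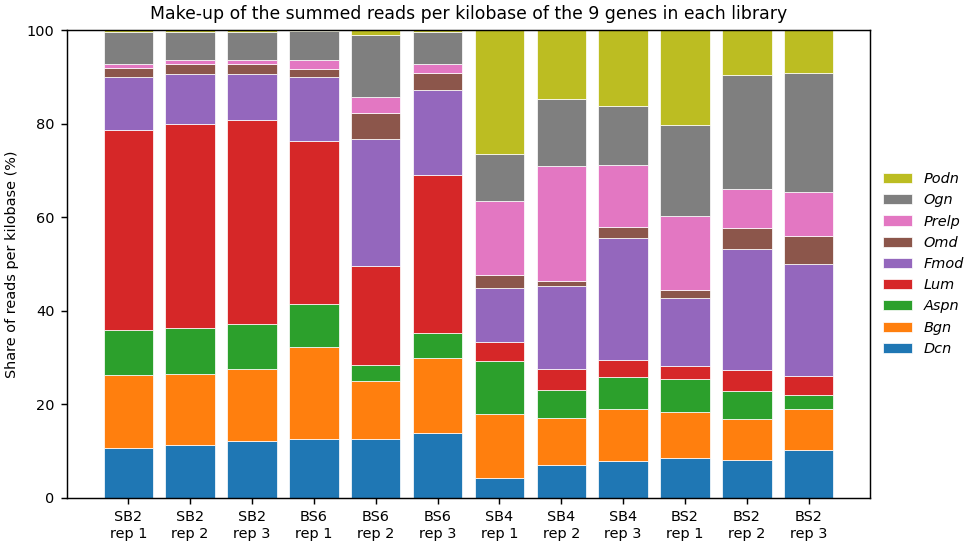
Share of each member in the summed reads per kilobase of the 9 genes (y axis, %), as stacked bars for each of the 12 libraries. Lum takes 42.9 to 43.8% in SB2 and 2.71 to 4.56% in the SB4 and BS2 libraries, where Podn, Prelp, Ogn and Fmod take most of the bar.

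The question of the change over time in the 2 labelled series was addressed by comparing day 4 with day 2 after skull injury (SB4 against SB2) and day 6 with day 2 after brain injury (BS6 against BS2). All 9 members were lower in SB4 than in SB2 and all 9 were higher in BS6 than in BS2, in libraries that did not overlap. The share of all genes without overlap was not counted. An unadjusted p under 0.05 (edgeR quasi-likelihood test) was found for 14534 of 17293 genes in SB4 against SB2 and 13286 of 17311 in BS6 against BS2. In edgeR's quasi-likelihood test, a called gene had a Benjamini-Hochberg adjusted p below 0.05 together with a log2 fold change beyond 1 in size. In SB4 against SB2, 9 of 9 members were called lower and 0 higher, where 28.6% of all genes tested were called lower and 27.8% higher. In BS6 against BS2, 9 of 9 were called higher and 0 lower, against 29% of all genes called higher and 26.5% lower. Both comparisons set a bone-rich against a brain-rich group.

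Lum had the largest log2 fold change of the members in both, -11.61 ± 0.18 (SE, adjusted p = 1.02e-12 in the quasi-likelihood test) in SB4 against SB2 and 10.50 ± 0.89 (adjusted p = 8.13e-05) in BS6 against BS2. The 3 class I genes had log2 fold changes of -8.96 ± 0.39 (Dcn), -8.64 ± 0.16 (Bgn) and -8.55 ± 0.15 (Aspn) in SB4 against SB2, and of 8.02 ± 0.62, 8.39 ± 0.70 and 7.88 ± 0.88 in BS6 against BS2. These 3 differed from each other by less than their standard errors in the BS series. Omd (-8.32 ± 0.21 and 6.95 ± 0.64), Fmod (-7.28 ± 0.45 and 7.12 ± 0.61) and Ogn (-7.17 ± 0.19 and 5.83 ± 0.44) followed on the log2 scale. The smallest differences were those of Prelp, with -3.91 ± 0.24 in SB4 against SB2 and 5.27 ± 0.18 in BS6 against BS2, and of Podn, with -2.45 ± 0.12 and 2.78 ± 0.21. On the linear scale Podn was 5.45-fold lower in SB4 than in SB2, and Lum 3130-fold lower. The adjusted p-values of the 9 members were at most 4.19e-05 in SB4 against SB2 and at most 0.000275 in BS6 against BS2 (edgeR quasi-likelihood test). Without BS6 replicate 2, 9 of 9 were again called higher in BS6 against BS2, beside 28.8% of all genes, with log2 fold changes from 2.60 (Podn) to 10.94 (Lum).

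The same edgeR test, run over the 12 libraries, compared the time change of the SB series with that of the BS series. The difference was called in 9 of 9 members as lower in the SB series, where 37.8% of all genes tested were called lower, and the log2 difference ranged from -5.23 ± 0.26 (Podn) to -22.14 ± 0.98 (Lum).

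**Figure D3:**
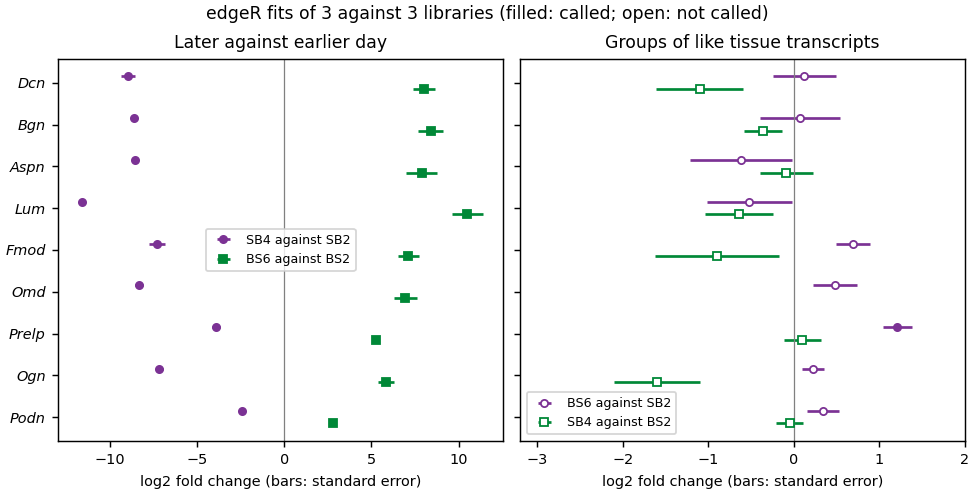
Log2 fold change (x axis) with its standard error for each member, on the left for SB4 against SB2 and BS6 against BS2 and on the right for BS6 against SB2 and SB4 against BS2; filled marks are called and open marks are not. On the left all marks are filled and the order from Lum (-11.61) to Podn (-2.45) is wide, and on the right only Prelp (1.21) is filled.

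Comparing the bone-rich groups with each other, BS6 against SB2, asks how the family differs where its levels are high. By their labels these groups differ in the tissue, the injured site and the day at once. Prelp was called higher in BS6, with a log2 fold change of 1.21 ± 0.17 (SE, adjusted p = 0.0304, edgeR quasi-likelihood test), which is a 2.32-fold higher level. It was thus 1 of 9 members called higher and 0 of 9 lower, where 1.11% of all genes tested were called higher and 0.741% lower. The 3 BS6 libraries (177 to 242 CPM) lay above the 3 SB2 libraries (80.6 to 106 CPM). The call of Prelp held without BS6 replicate 2, with a log2 fold change of 1.34 (adjusted p = 0.000929, and 2.39% of all genes called higher), and was lost without any other library of the 6: the value was then 1.14 (adjusted p = 0.0552, without BS6 replicate 1), 1.16 (0.0744, without BS6 replicate 3), 1.11 (0.181, without SB2 replicate 1), 1.23 (0.110, without SB2 replicate 2) and 1.30 (0.142, without SB2 replicate 3). Fmod was apart between the groups too, with a log2 fold change of 0.69 ± 0.20 and an adjusted p of 0.0842, and of 0.84 (adjusted p = 0.00401) without BS6 replicate 2, still under the fold of the call. The other 7 members overlapped between the groups, with log2 fold changes from -0.62 ± 0.60 (Aspn) to 0.48 ± 0.26 (Omd). How many of all genes were apart between these groups was not counted.

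BS6 replicate 2 divided the members. Against the mean of BS6 replicates 1 and 3, its level was lower by 5.16-fold for Aspn, 3.90-fold for Lum, 3.50-fold for Bgn and 2.54-fold for Dcn. Col1a1, the main collagen of bone, was lower by 3.63-fold in the same library. Fmod (1.42-fold), Prelp (1.35-fold), Ogn (1.18-fold) and Omd (1.14-fold) were lower by far less, and Podn was 1.39-fold higher. In the cluster on chromosome 13 the neighbours Omd and Ogn had like values, and Aspn did not. Other cell type markers moved in this library as well. The tendon and periosteal markers summed to 414 CPM against 2271 and 2245 CPM in BS6 replicates 1 and 3. Postn made 313.5 against 2053 and 2033 CPM of this sum. The erythroid markers summed to 12750 against 8519 and 7751 CPM, with Hba-a1, Hbb-bs, Hbb-bt and Alas2 highest in replicate 2. Slc4a1 (19.75 against 164.5 and 137 CPM) and Klf1 (0.846 against 9.65 and 5.79 CPM) were lowest in it. Osteoclast markers summed to 626.5 against 1962 and 2457 CPM, and osteoblast and osteocyte markers to 1194 against 1714 and 2830 CPM. The neuron sum was 201 against 122 and 115 CPM, and the oligodendrocyte sum 409 against 177 and 195 CPM. Among the neuron markers Camk2a was lowest in replicate 2 (18.5 against 32.3 and 26.4 CPM). The astrocyte sum was lowest in it too, with 494 against 550 and 733 CPM. So were the mural sum (1139 against 1788 and 1628 CPM) and the endothelial sum (840.5 against 1094 and 965 CPM). The 13 meningeal and perivascular fibroblast markers summed to 1920 against 855 and 1099 CPM, of which Ptgds made 1127 against 96.8 and 212 CPM. The other 12, a sum chosen after the values were seen, came to 794 against 758 and 887 CPM, so that their sum did not set replicate 2 apart, although 8 of the 12 were highest in it. Their part in the members' levels was not tested.

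**Figure D4:**
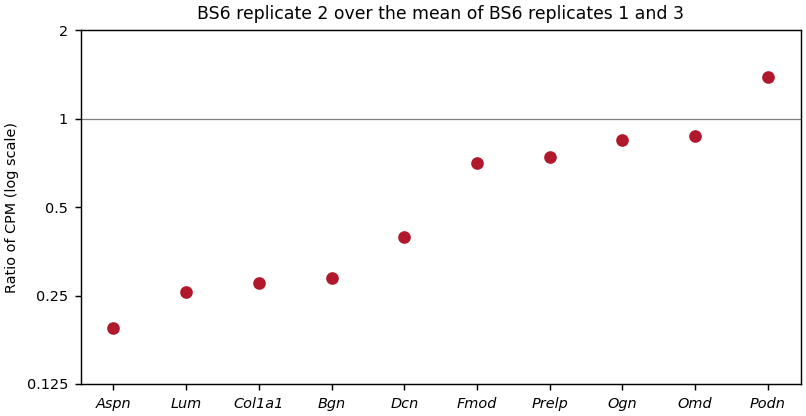
Ratio of the CPM in BS6 replicate 2 to the mean of BS6 replicates 1 and 3 (y axis, log scale), for the 9 members and Col1a1, in order; the line marks equal levels. Aspn (0.194), Lum (0.256), Col1a1 (0.276), Bgn (0.286) and Dcn (0.394) lie apart from Fmod (0.704), Prelp (0.741), Ogn (0.846), Omd (0.874) and Podn (1.39).

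Set against Col1a1 reads within each library, all 9 members had higher ratios in the brain-rich than in the bone-rich libraries. For 100 Col1a1 reads, SB2 had 4.72 to 6.15 reads of Dcn and 7.999 to 9.27 reads of Lum, and BS6 had 3.40 to 5.65 and 3.49 to 5.51. The brain-rich libraries had 69.4 to 135 reads of Dcn in SB4 and 95.2 to 129 in BS2 for 100 of Col1a1, and 203.6 to 319 reads of Podn in SB4. Lum stayed below Col1a1 in these libraries too, with 26.4 to 36.4 reads in SB4 and 15.2 to 21.9 in BS2, as did Aspn (15.1 to 75.0 over both groups) and Omd (7.27 to 29.4). Col1a1 itself stood at 18020 to 76620 CPM in the bone-rich libraries and at 2.55 to 9.41 CPM in the brain-rich ones, where it had 36 to 147 reads per library. Its log2 fold changes, -13.39 in SB4 against SB2 and 12.76 in BS6 against BS2, were larger in size than those of every member. The higher ratios follow from these changes.

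The brain-rich groups, SB4 against BS2, were compared in the same way. No member passed the test: 0 of the 8 members tested were called higher or lower, where 0.086% of all genes tested were called higher and 0.0614% lower, and DESeq2 called 0 of 8 as well. At an unadjusted p under 0.05 in this test there was 1 of the 8 members, Ogn, beside 1933 of all 16278 genes tested. Ogn had a log2 fold change of -1.60 ± 0.50 (SE, adjusted p = 0.317, edgeR quasi-likelihood test) and 3 SB4 libraries below the 3 BS2 libraries. Dcn followed with -1.10 ± 0.51 (adjusted p = 0.493), in libraries that overlapped. Prelp (0.10 ± 0.22), Podn (-0.05 ± 0.16) and Aspn (-0.09 ± 0.31) were the closest to 0 on the log2 scale. Omd was not tested, since its 4 to 35 reads per library did not pass the filter on low counts. The absence of calls depended on BS2 replicate 1, the lowest BS2 library for Ogn and for Omd. Without it Ogn (-1.95, adjusted p = 3.14e-05) and Omd (-2.38, adjusted p = 0.00511, edgeR quasi-likelihood test) were called lower in SB4, 2 of 9 members beside 0.284% of all genes in that fit. Leaving out a lowest BS2 library widens the gap and narrows the spread of BS2, while SB4 replicate 1, the lowest for Ogn in SB4, was kept.

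Within the brain-rich libraries several members were lowest in replicate 1 of each group, as were markers of meningeal and perivascular fibroblasts, the cells of the brain's coverings and vessels. The 13 markers summed to 274, 359 and 417 CPM in SB4 replicates 1 to 3 and to 350.1, 719 and 653 CPM in BS2 replicates 1 to 3. Ptgds alone made 63.6 to 81.6% of this sum. The other 12, a sum chosen after the values were seen, came to 99.6, 114 and 112 CPM in SB4 and to 101, 132 and 135.0 CPM in BS2, with 9 of the 12 lowest in replicate 1 in each group. In their sums, markers of other vessel cells were lowest in replicate 1 of each group as well. Single markers departed from this. In SB4 the mural markers Rgs5, Abcc9 and Kcnj8 and the endothelial marker Kdr were not lowest in replicate 1. In BS2 the same was true of Abcc9 and Kcnj8. Endothelial markers summed to 169.5, 202 and 216 CPM in SB4 and 132.5, 201 and 202 CPM in BS2, and mural markers to 221, 228 and 284 CPM in SB4 and 201, 249 and 258 CPM in BS2. Dcn, Lum, Fmod and Ogn were lowest in replicate 1 of each group too, and highest in BS2 replicates 2 and 3. The range over the 6 libraries was 1.77 to 11.2 CPM for Dcn, 2.77 to 16.3 CPM for Fmod and 1.84 to 12.3 CPM for Ogn. Prelp was also lowest in replicate 1 of each group, with a range of 4.11 to 8.70 CPM and its highest value in SB4 replicate 2. Podn ranged from 6.09 to 8.24 CPM, without that order. Bgn, Aspn and Omd did not keep it either, as each was lowest in replicate 2 in SB4. In BS2 Bgn and Omd were lowest in replicate 1 and Aspn in replicate 3. The part of any of these cells in the members' levels was not tested. Osteoblast and osteocyte markers summed to 21.4, 20.2 and 22.1 CPM in SB4 replicates 1 to 3 and to 20.3, 25.2 and 23.9 CPM in BS2. In BS2 this sum was thus lowest in replicate 1 as well, and in SB4 in replicate 2. Runx2 made 13.2 to 15.2 CPM of it, while Ibsp, a defining osteoblast marker, had 0.0709 to 0.218 CPM. The part of these cells was not tested either.

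**Figure D5:**
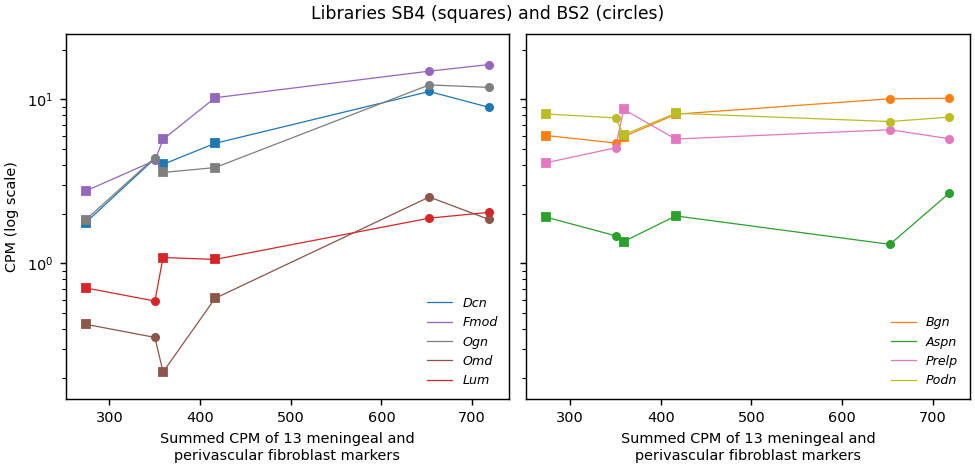
CPM of the members (y axis, log scale) against the summed CPM of 13 meningeal and perivascular fibroblast markers (x axis) in the 3 SB4 (squares) and 3 BS2 (circles) libraries, joined in the order of the x axis; Ptgds alone makes 63.6 to 81.6% of the marker sum. Dcn, Fmod and Ogn lie lowest in the library with the lowest marker sum (274 CPM) and highest in the 2 with the highest (653 and 719 CPM), while Podn and Prelp stay between 4.11 and 8.70 CPM.

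The genes nearest in pattern were sought for each member among 13035 genes whose mean reached 5 CPM, by the root mean square (RMS) difference of mean-centred log2 CPM over the 12 libraries. Dcn was nearest to Slc36a2 (0.43) and Bgn (0.439), and Bgn to Col12a1 (0.366), a collagen on the surface of fibrils, and Rcn3 (0.375). Aspn was nearest to Serpinh1 (0.381), the collagen chaperone HSP47, and Kdelr3 (0.441), and Lum to H19 (0.48) and Acp5 (0.575). Fmod was nearest to Serping1 (0.336) and Mdfi (0.457), Omd to Col8a2 (0.481) and Fmod (0.491), and Ogn to Fbln1 (0.311) and Alx4 (0.341), a transcription factor of the skull vault. Prelp was nearest to Lrp5 (0.261) and Cilp2 (0.325), and Podn to Rps9 (0.136) and Ttc7 (0.153). The other members were close for some and far for others: the nearest member was second for Dcn (Bgn) and for Omd (Fmod), but stood at rank 24 for Lum, 1365 for Prelp and 4416 for Podn. How far the gap between bone-rich and brain-rich groups sets this likeness was not tested.

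Other genes of the family were measured for 8 of 9 names. In SB4 against SB2, 6 of these 8 were called lower and 1 higher, with a median log2 fold change of -4.68 against -8.32 for the 9 members and -0.01 for all genes tested, and in BS6 against BS2 7 were called higher and 1 lower. Over all genes tested, 28.6% were called lower and 27.8% higher in SB4 against SB2. In BS6 against BS2 the shares were 29% higher and 26.5% lower. Epyc (epiphycan, a cartilage SLRP), which lies beyond Lum on chromosome 10, had 32.1, 22.9 and 35.8 CPM in SB2 and 8.80, 8.34 and 15.02 CPM in BS6. It was the 1 family gene called lower in BS6 against SB2, where 0.741% of all genes tested were called lower. Its log2 fold change was -1.48 ± 0.28 (adjusted p = 0.0410, edgeR quasi-likelihood test). That call held without BS6 replicate 2 (-1.34, adjusted p = 0.0307) and was lost without any other library of the 6, with adjusted p of 0.0671 to 0.186, and 1041 exon bases of Epyc are shared with Gm10754. Chadl ran the other way from the rest, with 3.36 to 4.196 CPM in SB2 and 7.80 to 9.72 CPM in SB4, and a log2 fold change of 1.26 ± 0.18 in SB4 against SB2 and -1.25 ± 0.26 in BS6 against BS2, though 1023 of its exon bases are shared with L3mbtl2. Ecm2, the neighbour of Aspn, fell by 4.34 and Tsku fell by 5.03 on the log2 scale in SB4 against SB2. Chad (chondroadherin) had 19.2 to 51.0 CPM in SB2 and 0 to 10 reads per library in SB4. Podnl1, the relative of Podn, had 77.3, 99.7 and 86.9 CPM in SB2 and 1 to 3 reads per library in SB4, so that it was near the limit of counting where Podn had 112 to 148 reads. Optc (-1.41 ± 0.53, with libraries that overlapped) was called lower in SB4 against SB2 and Nyx (-0.83 ± 0.52, adjusted p = 0.163) was not.

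The enzymes that build the chains of these proteoglycans changed in both directions. Of 21 genes for the GAG linker and for chondroitin or dermatan sulfate, 9 were called lower and 1 higher in SB4 against SB2, with a median log2 fold change of -0.87, where 28.6% of all genes were called lower and 27.8% higher. Dse, the epimerase that makes dermatan sulfate, fell by 4.45 and Chpf, a chondroitin polymerising factor, fell by 1.34 on the log2 scale, while Xylt1, which starts the chain, rose by 2.01. Chst13, a sulfotransferase, was called lower as well, with 64 to 72 reads per library in SB2 and 0 reads in every SB4 library. In BS6 against BS2, 10 of the 21 were called higher and 3 lower (11 and 3 without BS6 replicate 2), where 29% of all genes were called higher and 26.5% lower. For keratan sulfate and tyrosine sulfation, 7 of 11 genes tested were called lower and 2 higher in SB4 against SB2 (median -1.67), and 7 higher and 2 lower in BS6 against BS2. B4galt1, a galactosyltransferase, fell by 4.57 and Papss2, which makes the sulfate donor, fell by 2.60. Chst1, the keratan sulfate sulfotransferase, rose by 4.82, from 6.06 to 7.46 CPM in SB2 to 186 to 207 CPM in SB4, and Chst2 rose by 1.00. Of the members that carry keratan sulfate, Lum and Fmod were low where Chst1 was high. Neither list had a called gene in BS6 against SB2 or in SB4 against BS2. Few of all genes were called there: 1.11% higher and 0.741% lower in BS6 against SB2, and 0.086% and 0.0614% in SB4 against BS2. Without BS6 replicate 2 Chsy3, a chondroitin synthase, was called lower in BS6 against SB2, as were 270 of all 16608 genes in that fit.

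The list of collagens that SLRPs bind or border on held 10 collagen genes and Lox, the enzyme that crosslinks collagen. All 11 were called lower in SB4 against SB2 and higher in BS6 against BS2, with median log2 fold changes of -9.57 and 8.40 beside -8.32 and 7.12 for the members. Of all genes tested, 28.6% were called lower in SB4 against SB2 and 29% higher in BS6 against BS2. For the 10 collagens alone the medians were -9.05 and 7.99. Col1a1 (-13.39 ± 0.20) and Col3a1 (-13.29 ± 0.31) had the largest log2 fold changes in SB4 against SB2, beyond that of Lum, and Col5a1 (-5.52 ± 0.18) and Col6a1 (-5.10 ± 0.15) the smallest. None of the 11 was called in BS6 against SB2, where 1.11% of all genes were called higher and 0.741% lower. None was called in SB4 against BS2 either, where these shares were 0.086% and 0.0614%. Without BS6 replicate 2 Col1a2 was called higher in BS6 against SB2, as were 2.39% of all genes in that fit. Genes for propeptide processing and cleavage of SLRPs were called lower in 11 of 11 tested in SB4 against SB2 and higher in 11 of 11 in BS6 against BS2. The same shares of all genes stand beside these counts. Mmp2, a gelatinase, fell by 9.63 on the log2 scale, and the smallest changes were those of Adamts4, an aggrecanase, which fell by 2.55, and Tll1, a tolloid protease, which fell by 1.87. Mmp13, the bone collagenase, had 54337 to 98417 reads per library in SB2 and 0, 0 and 1 read in SB4. Adamts1 was the gene of this list called in BS6 against SB2, with -1.24 ± 0.17 (adjusted p = 0.0304, edgeR quasi-likelihood test). The call held without BS6 replicate 2 (-1.14, adjusted p = 0.00401), where Mmp13 was called lower as well, and was lost without any other library of the 6, with adjusted p of 0.0549 to 0.181.

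Receptors and growth factors that SLRPs bind were called lower in 12 of 15 genes tested and higher in 1 in SB4 against SB2, with a median of -2.86. Of all genes tested, 28.6% were called lower and 27.8% higher in this comparison. Itga2, a collagen receptor subunit, fell by 5.82 and Tgfb1 fell by 5.16 on the log2 scale, and Lrp1, an endocytic receptor of decorin, fell by 1.30. Erbb4, a receptor of the EGF receptor family, rose by 6.25, from 0.599 to 1.95 CPM in SB2 to 105.5 to 115 CPM in SB4. The Toll-like receptor genes Tlr2 and Tlr4, whose products bind biglycan, were at 15.4 to 20.2 and 16.1 to 19.02 CPM in SB2 and at 0.724 to 1.49 and 1.28 to 1.79 CPM in SB4. In BS6 against BS2, 12 of the 15 were called higher and 1 lower, where 29% of all genes were called higher and 26.5% lower. Bmp4 was called higher in BS6 against SB2 (log2 fold change 1.02 ± 0.21, adjusted p = 0.0447, edgeR quasi-likelihood test). Its call was lost without any single library of the 6, with log2 fold changes of 0.85 to 1.18, and without BS6 replicate 2 (0.85) through the fold alone, at an adjusted p of 0.0118. Of all genes tested, 1.11% were called higher and 0.741% lower in BS6 against SB2. No gene of the list was called in SB4 against BS2, where these shares were 0.086% and 0.0614%.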

How the data were processed

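Poly(A) mRNA of 12 libraries, 3 in each of 4 groups taken from the sample titles, was sequenced as paired reads. After trimming with fastp and alignment to mm10 with HISAT2 2.1.0 (submitters' processing notes), the authors deposited raw counts per gene symbol. The counting program, the annotation, the use of strand and whether a batch correction preceded these counts are not given in the sources used here, so reads of overlapping and antisense genes are uncertain. Of the 22317 symbols, 22022 matched GENCODE M21, which gave coordinates and exon lengths. All columns were mapped to samples by name.

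The robust quasi-likelihood test of edgeR 4.0.16 (R 4.3.3) was run with TMM factors, after filterByExpr at a minimum count of 10, in fits of 3 against 3 libraries, with Benjamini-Hochberg adjustment over all genes tested. The change over time was compared between series in 1 fit of 12 libraries. Standard errors were obtained by dividing a log2 fold change by its root F. The scripts were tested on simulated data with known changes. Total counts of 14126082 to 18972654 make 3 counts worth 0.163 to 0.218 CPM. These limits cover counting error only, as reads without molecular identifiers are not independent molecules. Alternatives were DESeq2 1.42.0, RLE factors, total counts only, 2 other filters on low counts, a fit over 12 libraries, the replicate number as a block, the adjusted p alone, leaving out each library, and shares without division by length. Chosen after seeing the data were the meningeal marker sum without Ptgds, the collagen list without Lox and the lists and shares without BS6 replicate 2. Named were all members, all other measured family genes, of each other list the 2 called genes at each end of the order by signed log2 fold change in SB4 against SB2 and in BS6 against SB2, the 2 genes nearest in pattern to each member (on log2 CPM, prior count 2), and defining markers of cell types. Tlr2 and Tlr4 were added outside this rule, after their values were seen. The members, the gene lists and the grouping into bone-rich and brain-rich libraries were chosen with earlier results of these data known.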

Additional observations from a re-analysis of the deposited data

Results flagged for a closer look

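All 9 members changed in opposite directions over time in the series labelled SB and in the series labelled BS, and the test of that difference over the 12 libraries (edgeR quasi-likelihood) passed for each. Most genes passed it: of all 18068 genes tested, 6834 were called lower and 6468 higher. The difference, the SB change minus the BS change on the log2 scale, was -17.02 for Dcn, -17.05 for Bgn and -16.44 for Aspn. It was -22.14 for Lum, -14.43 for Fmod, -15.30 for Omd and -9.21 for Prelp. For Ogn it was -13.04 and for Podn -5.23. In each series 1 of the 2 days is bone-rich and the other brain-rich, with the neuron markers summing to 108 to 201 CPM in SB2 and BS6 and to 12010 to 13390 CPM in SB4 and BS2, so that day and tissue content cannot be told apart.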

How the results depend on the processing

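Under all alternatives the members' calls in SB4 against SB2, in BS6 against BS2 and in the difference between both changes kept their direction and their side of the threshold, and no value reversed. A minimum of 10 counts in every library left out Omd in both comparisons over time. In BS6 against SB2 the number of members called was 1 and fell to 0 with the replicate block, while leaving out single libraries gave 0 to 1, all through Prelp. In SB4 against BS2 it was 0 and came to 2 with the replicate block (Dcn -1.16 and Ogn -1.62 on the log2 scale), while leaving out single libraries gave 0 to 2. The replicate numbers were not taken to pair the libraries, since the correlations of same-numbered deviations were -0.151 to 0.099. Over all genes, 182 were called higher and 121 lower in BS6 against SB2, against 750 and 305 with DESeq2, 947 and 326 in the fit over 12 libraries, 125 and 163 with total counts only, 0 and 0 with the replicate block, 397 and 270 without BS6 replicate 2, at most 17 and 17 without another BS6 library and 0 and 0 without any SB2 library. In SB4 against BS2 they were 14 and 10, against 24 and 17 with DESeq2, 26 and 24 without a filter, 3 and 5 in the fit over 12 libraries, 22 and 39 with the replicate block, 12 and 47 without BS2 replicate 1, 25 and 16 without SB4 replicate 2 and 68 and 17 without SB4 replicate 3. With the replicate block and with single libraries left out, Epyc, Adamts1 and Bmp4 lost their calls in BS6 against SB2, except for Epyc and Adamts1 without BS6 replicate 2. Bmp4 also lost its call with total counts only (0.96) and in the fit over 12 libraries (adjusted p = 0.0527). Causes were not tested. Without division by length the share of Lum in SB2 was 30.5% and that of Bgn 26.8%, and 19 of 36 shares moved by more than the spread between replicates. List medians printed above did not change with genes at or under 3 counts set to their bound. Depth limits Omd and Lum in the brain-rich libraries, where they rest on 4 to 35 reads.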
